A study of Drosophila melanogaster with 2 samples.

Results

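Among the places where a tagged Snail protein was recovered on the genome of fly embryos, 335 lay inside introns and away from every annotated transcription start site. These intronic sites came from the authors' list for the pooled replicates. It is limited to an irreproducible discovery rate (IDR) of 0.01, where the IDR measures how poorly the rank of a peak repeats. A peak was taken as a member if its summit, the position of highest enrichment, lay over 500 bp from the start of every annotated coding or noncoding transcript, in no exon and within an intron of at least 1 gene. Of 4221 peaks on the 6 main chromosome arms, 378 (8.96%) met this rule. Overlapping peaks within this class were counted once, by the highest signal, which left 335 sites, of which 43 stand for 2 peaks each. The other classes, each counted on its own in the same way, held 3008 promoter sites within 500 bp of a start, 179 intergenic sites and 89 exonic sites. The peaks of 8 intronic sites overlap a promoter peak, although their summits lie outside the promoter limit.

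The embryos were Drosophila melanogaster of the strain sna-GFP, collected whole at 0 to 24 h of development. They carried a transgene for a fusion of Snail with eGFP, and chromatin immunoprecipitation and sequencing used an antibody described as directed against GFP, although the labels give sna as the antibody. There was 1 group with 2 biological replicates, so no condition could be compared. The collection spans all of embryogenesis and all cell types, the insertion is described only as targeting sna, the sex of the embryos was not collected, and the control experiment that the labels name was not analysed here. Depth is unknown because no file gives read counts. The signal of a peak is the authors' own enrichment value, on a scale not given in the sources used here, and it is compared only within a list.

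Snail is a zinc-finger protein known mainly as a repressor. In the early fly embryo it keeps genes of the neuroectoderm silent in the presumptive mesoderm, and it later acts in neural precursors. Its DNA-binding domain reads a class of E-box, of which CAGGTG is the usual form. Introns of fly genes, above all long first introns, are known to hold many enhancers. Other proteins whose motifs were searched include the GAGA factor, encoded by Trl, which reads GAGAG repeats and helps to open chromatin, the insulator protein BEAF-32, which reads CGATA, and DREF, which reads the longer TATCGATA element, abbreviated DRE.

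The DNA under the strongest intronic sites shown here did not share 1 sequence pattern, although CGATA was in the windows of Asator, zf30C and Atg1 with CG42709. The following 5 windows, of 100 bp on each side of the summit, are those of highest signal outside 1 chromosome arm whose sequence is not printed here, which leaves out the sites in EcR and Dscam1 that rank 5 and 6. They are given on the forward strand of dm6 from the RefSeq copy of the Release 6 assembly. Capitals mark GGTTAAAGT in the org-1 window, CGATA on either strand in the Asator and zf30C windows and TATCGATA in the window shared by Atg1 and CG42709, and no capitals are used for the window shared by Ptp61F and ru. The org-1 window carries GGTTAAAGT 7 times in close succession, and that repeated word was picked out after the sequence was seen. CAGGTG was found in none (0) of these windows.
org-1, chrX:8452271-8452471: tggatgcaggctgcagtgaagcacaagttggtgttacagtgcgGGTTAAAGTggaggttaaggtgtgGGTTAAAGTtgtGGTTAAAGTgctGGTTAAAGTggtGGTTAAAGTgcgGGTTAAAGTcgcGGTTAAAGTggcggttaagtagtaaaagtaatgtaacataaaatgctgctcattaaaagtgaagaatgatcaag
Asator, chr4:486567-486767: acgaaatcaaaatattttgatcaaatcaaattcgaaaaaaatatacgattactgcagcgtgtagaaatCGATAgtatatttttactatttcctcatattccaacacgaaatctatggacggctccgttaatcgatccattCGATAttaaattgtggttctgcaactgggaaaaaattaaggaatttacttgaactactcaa
Atg1 and CG42709, chr3L:12794603-12794803: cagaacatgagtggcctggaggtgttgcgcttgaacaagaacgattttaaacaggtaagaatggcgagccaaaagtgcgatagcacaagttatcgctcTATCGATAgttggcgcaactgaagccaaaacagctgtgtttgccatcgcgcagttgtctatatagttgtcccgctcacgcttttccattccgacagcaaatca
zf30C, chr2L:9759018-9759218: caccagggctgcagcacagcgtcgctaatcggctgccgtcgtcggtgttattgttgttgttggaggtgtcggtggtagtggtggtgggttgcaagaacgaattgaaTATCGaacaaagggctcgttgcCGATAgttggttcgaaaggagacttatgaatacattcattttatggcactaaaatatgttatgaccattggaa
Ptp61F and ru, chr3L:1376134-1376334: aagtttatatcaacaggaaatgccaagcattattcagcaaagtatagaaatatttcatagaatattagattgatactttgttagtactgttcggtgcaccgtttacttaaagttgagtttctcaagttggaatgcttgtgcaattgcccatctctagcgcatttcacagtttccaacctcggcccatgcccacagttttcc

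Apart from the general E-box, GAGAG was the commonest of the motifs searched, with a match in 188 sites. The windows printed here are those with most matches outside that arm and are not typical, since only 46 sites held 5 or more. In the windows of rdx, tna and Eip74EF, capitals mark GAGAG on either strand, which gave 23, 14 and 13 overlapping matches. The signals of these sites were 68.2, 102 and 123. The rdx site was kept in neither replicate's own list, and the others only in that of replicate 1. The rdx window is dominated by 1 long run of the repeat, while the tna and Eip74EF windows hold several shorter runs. In tna 13 of the matches lie before the summit and 1 after it, and in Eip74EF 8 lie before and 5 after.
rdx, chr3R:14017759-14017959: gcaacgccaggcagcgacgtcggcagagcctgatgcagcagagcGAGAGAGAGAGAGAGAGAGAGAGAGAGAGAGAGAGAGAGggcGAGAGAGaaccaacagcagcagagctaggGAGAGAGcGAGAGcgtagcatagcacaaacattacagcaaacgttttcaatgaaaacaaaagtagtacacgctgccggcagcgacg
tna, chr3L:10856655-10856855: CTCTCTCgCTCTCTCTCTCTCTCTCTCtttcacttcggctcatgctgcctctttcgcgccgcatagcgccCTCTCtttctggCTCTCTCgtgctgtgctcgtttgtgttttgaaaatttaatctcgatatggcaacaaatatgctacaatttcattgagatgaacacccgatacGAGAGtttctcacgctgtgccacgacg
Eip74EF, chr3L:17590731-17590931: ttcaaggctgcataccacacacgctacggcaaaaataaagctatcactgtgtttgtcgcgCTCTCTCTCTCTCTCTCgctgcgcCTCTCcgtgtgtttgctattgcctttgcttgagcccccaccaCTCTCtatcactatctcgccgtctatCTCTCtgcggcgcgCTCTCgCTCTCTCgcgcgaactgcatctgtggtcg

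The complete TATCGATA element was found in 11 windows, and those of Tudor-SN and woc show it in capitals as a single copy near the summit.
Tudor-SN, chr3L:262806-263006: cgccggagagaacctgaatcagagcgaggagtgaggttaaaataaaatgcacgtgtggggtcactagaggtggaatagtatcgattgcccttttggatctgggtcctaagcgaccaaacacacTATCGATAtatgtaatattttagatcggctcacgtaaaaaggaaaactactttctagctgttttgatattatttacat
woc, chr3R:27263401-27263601: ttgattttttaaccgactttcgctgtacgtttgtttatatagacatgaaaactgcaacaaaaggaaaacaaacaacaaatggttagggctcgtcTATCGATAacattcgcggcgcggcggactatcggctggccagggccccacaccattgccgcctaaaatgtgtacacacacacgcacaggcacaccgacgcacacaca

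The Snail-family E-box was found in 22 windows. The windows of msn, Pgd and Delta, those of highest signal among the sites with CAGGTG outside that arm, each hold 1 copy in capitals. In the Delta window the E-box lies at the edge, and 10 overlapping matches to GAGAG, left in lower case, lie farther in, in 2 separate runs.
msn, chr3L:2579907-2580107: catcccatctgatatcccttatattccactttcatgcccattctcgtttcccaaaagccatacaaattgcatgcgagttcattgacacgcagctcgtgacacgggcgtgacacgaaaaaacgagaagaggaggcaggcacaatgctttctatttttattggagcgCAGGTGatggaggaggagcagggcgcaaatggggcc
Pgd, chrX:2146167-2146367: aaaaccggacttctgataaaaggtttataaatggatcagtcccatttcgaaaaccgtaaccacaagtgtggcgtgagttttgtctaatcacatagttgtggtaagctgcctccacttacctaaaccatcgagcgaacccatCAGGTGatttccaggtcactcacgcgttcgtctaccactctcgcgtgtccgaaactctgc
Delta, chr3R:19321977-19322177: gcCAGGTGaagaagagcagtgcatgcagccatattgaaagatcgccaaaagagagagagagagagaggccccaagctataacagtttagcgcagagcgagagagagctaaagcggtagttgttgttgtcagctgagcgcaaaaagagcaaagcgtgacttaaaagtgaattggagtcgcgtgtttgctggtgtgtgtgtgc

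The intronic sites were weaker than the promoter sites. Their signal had a median of 90.7, with quartiles of 79 and 109 and a range of 5.05 to 429. The promoter sites had a median of 128 and reached 1152, and the intergenic sites had a median of 94.3. Of the 335 intronic sites, 84 lay above 109, the median of the whole pooled list, and 2 lay in its top decile, which began at 277. Most of the intronic sites therefore sat in a narrow band, with 207 between 70 and 110, 28 above 150 and 6 below 30. Nearly all (328, or 97.9%) had the width of 516 bp, against 73.5% of promoter sites.

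The pair of sites in the top decile stood far above all others. The first lies in the first intron of org-1, which encodes a T-box transcription factor, at chrX:8452180-8452523. It had a signal of 429 in the pooled list, and its candidate peaks in the lists of all regions ranked in each replicate had signals of 226 in replicate 1 and 195 in replicate 2. The second, at chr4:486521-486799, lies in the first intron of Asator, which encodes a kinase of the tau-tubulin kinase type. It had a pooled signal of 426, with 239 in replicate 1 and 201.1 in replicate 2. Both sites were kept in the thresholded list of each replicate, and the next strongest site, at 251, was well below them in both. The Asator site was the only intronic member on chromosome 4.

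Sites 3 to 10 in order of signal lay in genes of diverse function. The site at chr3L:12794598-12794826 falls in introns of the overlapping genes Atg1, a kinase gene that starts autophagy, and CG42709, the shortest of 140 bp and the longest of 9054 bp. Its pooled signal was 251, with 154 in replicate 1 and 104 in replicate 2. The site in the first intron of zf30C, a zinc-finger gene, lies at chr2L:9758967-9759231 and also had a pooled signal of 251, with 146 and 126 in the replicates. The site in EcR, which encodes the ecdysone receptor, lies at chr2R:6151218-6151733 and had 223, with 135 and 87.4. That in Dscam1, a neuronal adhesion gene known for its many splice forms, had 220, with 136 and 89.5. The site shared by Ptp61F, a tyrosine phosphatase gene, and ru, which encodes a rhomboid protease, lies at chr3L:1375976-1376491 and had 213, with 117 and 82.8.

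The strongest of the sites in mam, which encodes the Notch coactivator Mastermind, lies at chr2R:14006765-14007280 and had 212, with 131 and 95.6. The site in the first intron of Tudor-SN, which encodes a nuclease of the RNA silencing machinery, lies at chr3L:262648-263163 and had 204, with 108 and 89.2. The site in the first intron of CG31688, at chr2L:20427587-20427716, had 196, with 120 and 101. For all 10 strongest sites the value of replicate 1 was above that of replicate 2. The same held for 206 of the 329 intronic sites with a candidate peak in both replicates (62.6%), and for 80% of 2986 promoter sites, and the scales of the 2 lists are not known to match. The sites ranked 11 to 15 lay in Dhc64C (dynein heavy chain, 192), Roc2 (a subunit of ubiquitin ligases, 189), Prps (phosphoribosyl pyrophosphate synthesis, 188), msn (a kinase upstream of JNK, 181) and Pgd (a dehydrogenase of the pentose phosphate pathway, 179).

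Few of the intronic sites were kept in both replicates on their own. A site was counted as found in a replicate if it overlapped a peak of that replicate's own thresholded list by at least 1 bp. Of the 335 sites, 53 (15.8%, 95% Wilson interval 12.3 to 20.1) were found in both replicates, 73 (21.8%) in replicate 1 alone, 45 (13.4%) in replicate 2 alone and 164 (49.0%, 43.6 to 54.3) in neither. Over all classes, 1583 of 3611 sites (43.8%) were found in both. Among promoter sites 49.1% (47.4 to 50.9) were found in both and 22.0% in neither, and among intergenic sites 21.8% (16.4 to 28.4) were found in both. Intervals cover counting error only, and neighbouring peaks of 1 library are not replicates of each other. The list made from the pair of replicates held 225 of the intronic sites (67.2%), against 84.7% of promoter sites.

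A site missing from a thresholded list was rarely missing from the candidates. In each replicate 332 of the 335 intronic sites overlapped a candidate region. The candidate lists are long, with 46847 regions on the arms in replicate 1 and 102292 in replicate 2. How often other intron sequence overlaps a candidate was not computed, so the overlap alone does not show a site to be present in a replicate. Among the 329 with a candidate in both, the Spearman correlation of the 2 candidate signals was 0.21 and Pearson's r on the log10 scale was 0.38. Across 2986 promoter sites these values were 0.77 and 0.81. These correlations describe regions that share the same 2 libraries, over a narrower range of signal for the intronic sites. The site in sim, with 61.7 in replicate 1, is an example with no candidate in replicate 2.

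**Figure D1:**
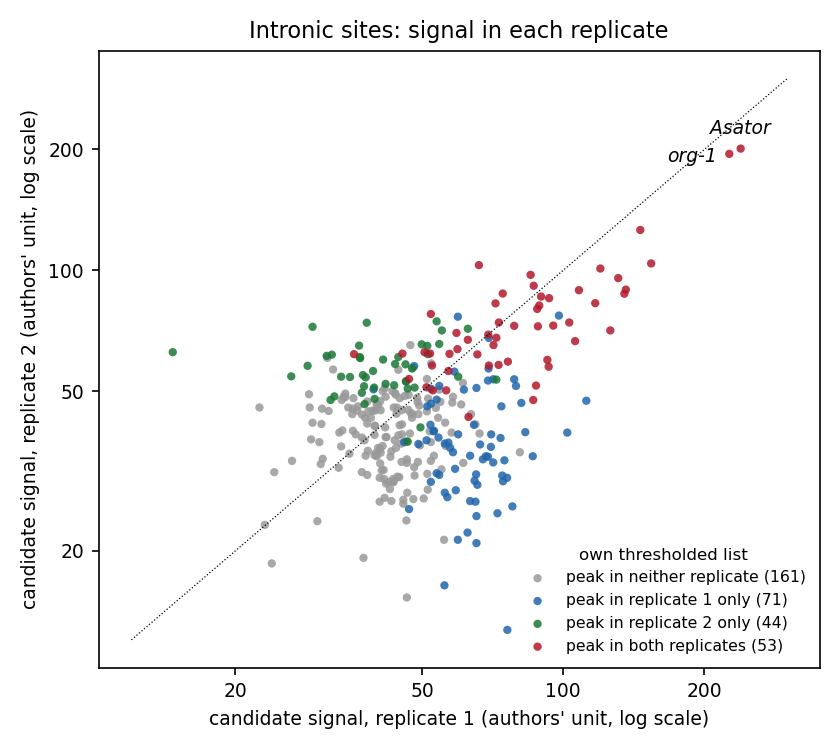
Candidate signal of 329 intronic sites in replicate 1 (horizontal axis) and replicate 2 (vertical axis), both in the authors' unit on a log scale, where each point is 1 site and the colour gives the thresholded lists that hold it. The dotted line marks equal values. The sites in org-1 and Asator lie apart at the upper right, and the 53 sites found in both replicates reach over the upper range while most others form 1 cloud.

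Replicate support followed the signal. Sites found in both replicates had a median pooled signal of 149 (76 to 429), those in replicate 1 alone 97.8, those in replicate 2 alone 93.5 and those in neither 80.9, with a highest value of 124. Of the 28 intronic sites at 150 or more, 25 (89.3%, 72.8 to 96.3) were found in both, beside 92.1% of promoter sites in the same band. Between 120 and 150 the share was 40.7% (24.5 to 59.3) of 27 intronic sites and 48.8% of promoter sites, between 100 and 120 it was 17.3% (9.38 to 29.7) and 24.2%, and between 90 and 100 it was 7.58% (3.28 to 16.5) and 8.86%. Below 70 none (0) of 48 intronic sites was found in both, beside 2.92% of promoter sites. Within each of these bands the promoter share lay inside the interval of the intronic share. Of the 20 strongest intronic sites, 19 were found in both replicates, the exception being a site in Trl at 174 that was found in replicate 1 alone.

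**Figure D2:**
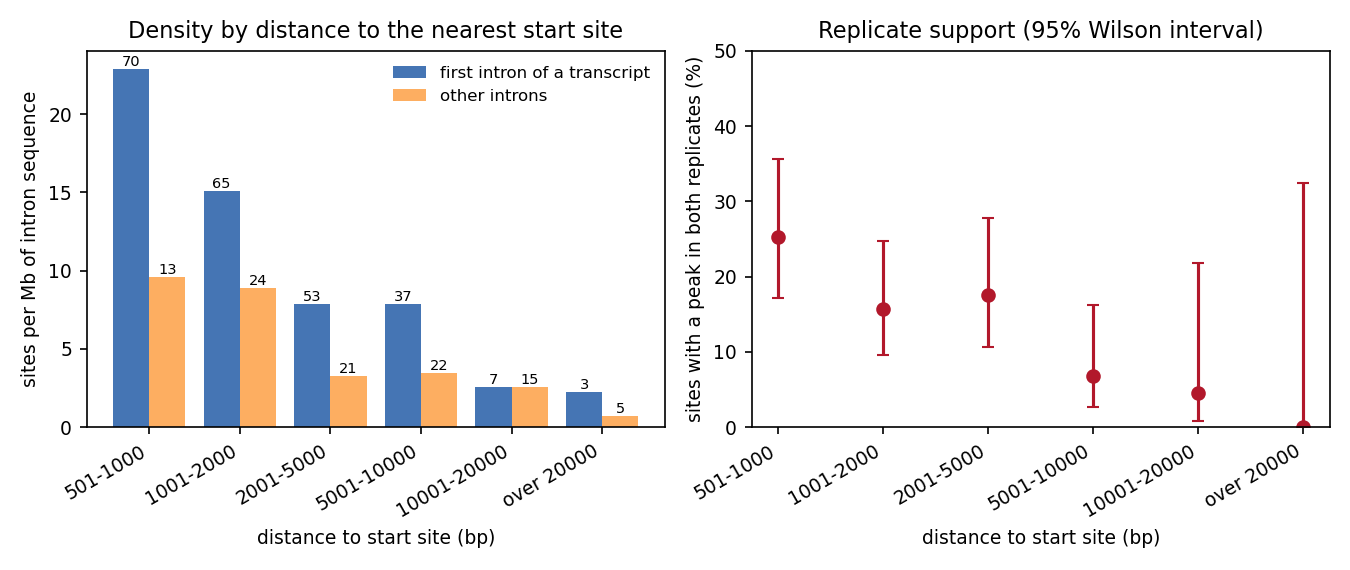
Left, intronic sites per Mb of eligible intron sequence by distance to the nearest start site in bp, for first introns and for other introns, with the number of sites above each bar. Right, the share of sites found in both replicates in each distance class, with 95% Wilson intervals as bars. The density of sites in first introns goes from 22.9 per Mb at 501 to 1000 bp to 2.21 beyond 20000 bp.

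The sites were densest in the intron sequence nearest to start sites, although the nearest 500 bp had been left out by rule. Eligible intron sequence, which is all sequence where a summit could have met the rule, covered 52.8 Mb or 39.5% of the arms, and held 6.34 sites per Mb. From 501 to 1000 bp the density was 18.8 per Mb (83 sites), from 1001 to 2000 bp 12.7 (89), from 2001 to 5000 bp 5.64 (74), from 5001 to 10000 bp 5.33 (59), from 10001 to 20000 bp 2.57 (22) and beyond 20000 bp 0.925 (8). The median distance was 1928 bp, and the farthest site, in luna, lay 46178 bp from any start. Just inside the limit, 24 intronic peaks lay 510 to 599 bp from a start with a median signal of 83.7, and just outside it 29 lay at 400 to 499 bp with a median of 75.1.

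Sites near to and far from start sites had similar signals, while the nearest were most often found in both replicates. The median signal was 93.3, 88.5, 92, 89.4, 88.1 and 88.6 in the 6 distance classes from near to far, and the Spearman correlation of signal and distance across the 335 sites was -0.04. The share found in both replicates was 25.3% (17.2 to 35.6) in the nearest class, 15.7%, 17.6% and 6.78% (2.67 to 16.2) in the next classes, 1 of 22 sites from 10001 to 20000 bp and 0 of 8 beyond. Only the intervals of the first and the fourth class did not overlap. Distant sites of middling signal were still present, such as 1 in mamo at 112 and 42781 bp from a start, found in replicate 1 alone.

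First introns held most of the sites. Of the 335, 235 (70.1%, 65.0 to 74.8) lay in the first intron of at least 1 transcript and 147 (43.9%) in a first intron of every transcript that spans the summit. First introns made up 43.4% of the eligible sequence, so they held 10.2 sites per Mb, against 3.34 in other introns. First introns were denser in 5 of the 6 distance classes, from 22.9 against 9.58 per Mb in the nearest to 2.21 against 0.686 in the farthest. From 10001 to 20000 bp the values were 2.53 and 2.58. The 2 kinds of intron differed little in signal, with medians of 90.8 and 88.9, and 13.6% (9.81 to 18.6) of first-intron sites were found in both replicates against 21% (14.2 to 30) of the others, with overlapping intervals.

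Many sites lay far from any promoter peak. The nearest promoter site was at a median of 6347 bp, and 123 intronic sites (36.7%) had none within 10000 bp. Of these 123, 13 were found in both replicates, and their median signal was 89.9. In 113 cases (33.7%, 28.9 to 39.0) the intronic site had a higher signal than the nearest promoter site. The org-1 site was 1 of them, with 429 against 82 at a promoter site 14835 bp away, and the Asator site had 426 against 71.2 at 3827 bp. An opposite case was spin, which encodes a lysosomal transporter, with 167 in its intron and 401 at a promoter site 5402 bp away. Across all 335 sites the Spearman correlation between an intronic site and its nearest promoter site was 0.03.

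By arm, the density of sites per Mb of eligible intron was 8.87 on 2R (82 sites), 7.99 on 3L (83), 6.06 on 2L (52), 5.06 on 3R (70), 4.61 on X (47) and 1.74 on 4 (1). Median signals ran from 82.5 on X to 94.9 on 3L over the 5 arms with more than 1 site.

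The intronic sites fell into 296 host genes, of which 283 were coding and 13 noncoding. Of 9101 coding genes with any eligible intron sequence, 283 (3.11%) were hosts. The share was higher in genes with more such sequence. It was 0.267% of 5628 genes with at most 1 kb, 6.43% of 1104 genes with 3 to 10 kb and 22.6% (13.5 to 35.5) of 53 genes with over 100 kb. Per Mb the order was different, with 17.4 sites in genes with 1 to 3 kb, 12.9 in those with 3 to 10 kb and 1.24 in those with over 100 kb. Host genes had a median of 12.8 kb of eligible sequence, against 0.462 kb over all 9101. In 47 coding genes there were at least 2 sites, and in 15 at least 3.

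Several of the genes with most sites encode transcription factors. Eip74EF, an ETS-domain gene induced by ecdysone, held 5 sites with pooled signals of 149, 123, 106, 102 and 87.5, the first of them found in both replicates with 71.7 and 82.7. They were spread along its 60.7 kb from 5.08 to 55.6 kb after the first start. The window of the second, at 28.5 kb, is the one printed above with 13 matches to GAGAG. The nuclear receptor gene ftz-f1 also held 5, at 123, 112, 98.1, 90.7 and 77.5, of which none was found in both replicates, and 3 of them lay between 40.4 and 44 kb. The third gene with 5 sites was sbb (scribbler), at 98.9, 89.9, 89, 80.2 and 22.9, again with none in both.

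In mam, 4 sites had signals of 212, 175, 105 and 84.8, and the first 3 were found in both replicates, the most for any host. Trl, which encodes the GAGA factor, held 4 sites at 174, 112, 109 and 94.3 in only 6.05 kb of eligible sequence, 2 of them found in both replicates. GAGAG matched 1, 4, 0 and 5 times in these Trl windows. By contrast the 4 sites of shn, which encodes a zinc-finger partner of BMP signalling, ran from 71.5 to 87.8 and none was found in either replicate's own list. EcR had 1 strong site, at 223, and a pair of weak ones, at 78.3 and 61. Tlk, a kinase gene, held 141, 128 and 83.4. Hr3 held 137, 94.4 and 51.5, which also lie in the overlapping genes CG12912 and CG46321.

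**Figure D3:**
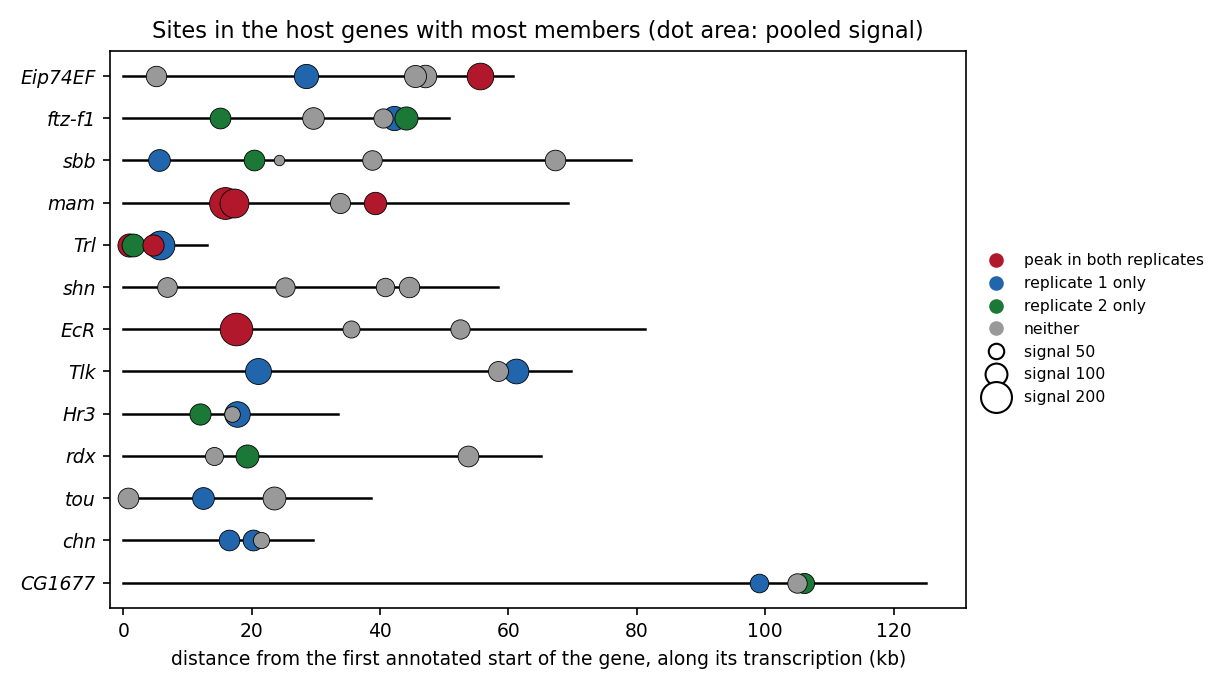
Intronic sites along the coding host genes with at least 3 members, as distance from the first annotated start of the gene along its transcription in kb, where each line is a gene, the dot area gives the pooled signal and the colour the replicate lists that hold the site. The genes CG12912 and CG46321, which overlap Hr3 and share its sites, are not drawn. The sites of Eip74EF are spread from 5.08 to 55.6 kb, and those of Trl crowd into its first 5.72 kb.

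Genes of the ecdysone response stood at the top of the 15 gene lists by share of hosts. Of its 16 genes with eligible introns, 9 were hosts (56.2%, 33.2 to 76.9), with 22 sites at 35.7 per Mb, beside 3.11% of all coding genes and 6.34 sites per Mb of all eligible sequence. Besides EcR, Eip74EF, ftz-f1 and Hr3, described above, the hosts were Eip63E (127), which encodes a kinase, E23 (119), which encodes a transporter, Eip75B (92), Hr39 (90.8) and Hr4 (84.9), which encode nuclear receptors, each value being that of its strongest site. The last 5 names were given after their values were seen. Of the 22 sites, 2 were found in both replicates. The genes br, Eip78C, Eip93F and Hr38 held no site, with 65, 32.1, 51.6 and 20.7 kb of eligible sequence. The list's genes are long, with a median of 36.3 kb. Coding genes with 30 to 100 kb of eligible sequence were hosts in 17.3% (13.8 to 21.3) of cases, at 5.28 sites per Mb. The lists were chosen with earlier results of these data known, so the share is a description.

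The list of BTB zinc-finger and related chromatin factors had 7 hosts of 14 (50%, 26.8 to 73.2) with 10 sites at 17.6 per Mb. Its strongest sites lay in Trl (174), mod(mdg4), an insulator gene (124, found in both replicates), mamo (112) and bab1 (111, found in both). The median gene of this list had 35.7 kb of eligible sequence, and of all coding genes with 30 to 100 kb 17.3% (13.8 to 21.3) were hosts, beside 3.11% of all coding genes. Among homeodomain, POU and Pax genes 5 of 24 were hosts (20.8%, 9.24 to 40.5), at 8.01 sites per Mb and a median of 17.3 kb, and of all coding genes with 10 to 30 kb 10.6% (8.65 to 13) were hosts. Ubx, a Hox gene, had 1 site at 131 with 69.2 and 69.1 in the replicates, and was found in both, while abd-A (93.4), hth (91) and Antp (66.9) were not.

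The genes tied to Snail itself held 2 sites. Of 13 genes of the Snail list with eligible introns, which holds its family and genes it is known to regulate, 2 were hosts (15.4%, 4.33 to 42.2), at 8.86 sites per Mb. The share of all coding genes, 3.11%, lies below this interval, but that of coding genes with 10 to 30 kb of eligible sequence, 10.6%, lies inside it, and the median gene of the list had 15 kb. The site in sim, the midline gene that Snail keeps silent in the mesoderm, had 113 and that in zfh1, a mesodermal zinc-finger gene, had 64.1, and neither was found in either replicate's own list. No intronic site lay in twi, rho, sog, ths, vnd, Mef2, tin, htl, fog, shg or stg. Some of these have long introns, such as twi with 52.1 kb and ths with 44.3 kb of eligible sequence, others short ones, such as rho with 1.95 kb and stg with 0.863 kb.

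In the signalling lists between 13% and 21.4% of the genes were hosts, beside 3.11% of all coding genes. Among coding genes with 1 to 3 kb of eligible sequence 3.04% were hosts, with 3 to 10 kb 6.43% and with 10 to 30 kb 10.6%. The median gene of the signalling lists had between 2.02 kb (Notch) and 13.7 kb (Wnt). The Notch list had 3 of 18, namely mam, the ligand gene Delta (134) and the receptor gene N (79), at 23.4 sites per Mb. The BMP list had 2 of 14, the inhibitor gene Dad (120, found in both replicates with 62.8 and 43.1) and shn, at 22.3 sites per Mb. The Wnt list had 3 of 14, the inhibitor gene nkd (91.4), the receptor gene fz2 (83.9) and the ligand gene Wnt4 (75.8), at 15 per Mb. Receptor tyrosine kinase signalling had 3 of 23, the ligand gene spi (92.6) and the ETS factor genes pnt (90.3) and aop (82.8), at 9.2 per Mb. Hedgehog and Hippo signalling had 3 of 15, kibra (109), ds (89.4) and wts (51), at 27.8 per Mb. All 5 densities were above the 6.34 sites per Mb of all eligible sequence, each from 3 to 6 sites. That value is not matched for gene size. Coding genes with 1 to 3, 3 to 10 and 10 to 30 kb of eligible sequence had 17.4, 12.9 and 7.68 sites per Mb.

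The structural, neural, RNA-binding and chromatin lists had hosts in 4.76% to 22.2% of their genes, beside 3.11% of all coding genes. The median gene of these lists had between 1.12 and 24.8 kb of eligible sequence. Hosts made up 3.04% of all coding genes with 1 to 3 kb, 6.43% of those with 3 to 10 kb and 10.6% of those with 10 to 30 kb. Cell adhesion and polarity had 2 of 22, par-1 (104) and Fas3 (65.8), at 5.34 sites per Mb. Actin, myosin and microtubule regulators had 3 of 20, msn (181), shot (102) and jvl (67.8), at 19.9 per Mb. Muscle structural genes had 2 of 14, sls (96) and Zasp52 (79.3), at 11.9 per Mb, and neural fate factors 2 of 15, sbb and jing (80.4), at 19.9 per Mb. RNA-binding and splicing regulators, among the longest genes, had 4 of 18 (22.2%, 9 to 45.2), at Imp (85.4), Rbfox1 (79.7), brat (72.1) and pum (54.6), and 4.59 sites per Mb. Polycomb, Trithorax and remodeler genes had 1 of 21, the remodeler gene kis (119), at 12.7 per Mb. The adhesion and RNA-binding densities were below the 6.34 per Mb of all eligible sequence and the others above it, each from 1 to 6 sites. Density also differed with gene size, with 17.4 sites per Mb in genes with 1 to 3 kb and 5.28 in those with 30 to 100 kb. The intervals of these shares are wide, and only the ecdysone and BTB lists had one that began above 25%.

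The Snail-family E-box was about as common at the intronic sites as in other intron sequence. CAGGTG was searched on both strands within 100 bp of each summit, and 22 sites (6.57%, 4.38 to 9.74) held it, against 5.92% of 245119 adjoining windows of the same size that tile the eligible introns outside peaks. At the base composition of the sites the tile share would be 8.42%. Windows centred 1000 bp to either side of the sites held CAGGTG in 24 of 393 cases, promoter sites in 6.02% and intergenic sites in 8.94%. The 22 sites with the E-box had no higher replicate support, with 3 (13.6%) found in both against 16% of the others. The strongest were msn (181, with 93.3 and 85.2), Pgd (179, with 88.9 and 81.7) and Delta (134, with 78.6 and 53.5), and the first pair was found in both replicates.

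Other E-boxes were likewise near the tile shares or somewhat above them. The Zelda core CAGGTA, which differs from the Snail form in its last base, was in 5.67% (3.66 to 8.69) of sites and 3.84% of tiles. The longer Zelda site CAGGTAG was in 7 sites (2.09%, 1.02 to 4.25) and 0.894% of tiles. At the base composition of the sites these tile shares would be 3.97% and 1.1%. CATATG, an E-box of Twist, was in 5.97% of sites, 6.21% of tiles and 5.24% of tiles at that base composition. CAGCTG, of proneural and other factors, was in 10.1% (7.35 to 13.8) of intronic sites, 7.09% of tiles and 18.4% of promoter sites. Any E-box, CANNTG, was in 67.8% of intronic sites and 63% of tiles. For CAGCTG and CANNTG the tile shares at the base composition of the sites would be 10% and 67.9%, level with the sites.

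GAGAG was the motif that set the intronic sites most apart from intron tiles by share, of the 23 searched. It matched in 188 (56.1%, 50.8 to 61.3), against 21.3% of intron tiles, 25.7% of tiles at the base composition of the sites and 97 of 393 neighbouring windows. Promoter sites held it in 25.5% (24.0 to 27.1) and intergenic sites in 43%, so the interval of the intronic share lay above both. In 123 sites (36.7%) there were 2 or more matches, counted with overlap allowed, and in 46 (13.7%) there were 5 or more. These shares were not counted in tiles or at promoter sites. The share was 64.0% (54.7 to 72.3) in the 111 strongest sites, 56.2% in the next 112 and 48.2% (39.2 to 57.4) in the 112 weakest, with overlapping intervals. The very strongest sites went the other way. Among those ranked 1 to 11 by signal, only the site in Tudor-SN held GAGAG, with 1 match. The share with GAGAG was 56.6% in sites found in both replicates and 65.8% (54.3 to 75.6) in those in replicate 1 alone. It was 53.3% in replicate 2 alone and 52.4% in neither, again with overlapping intervals. It was nearly equal in first introns (56.2%) and other introns (56%).

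**Figure D4:**
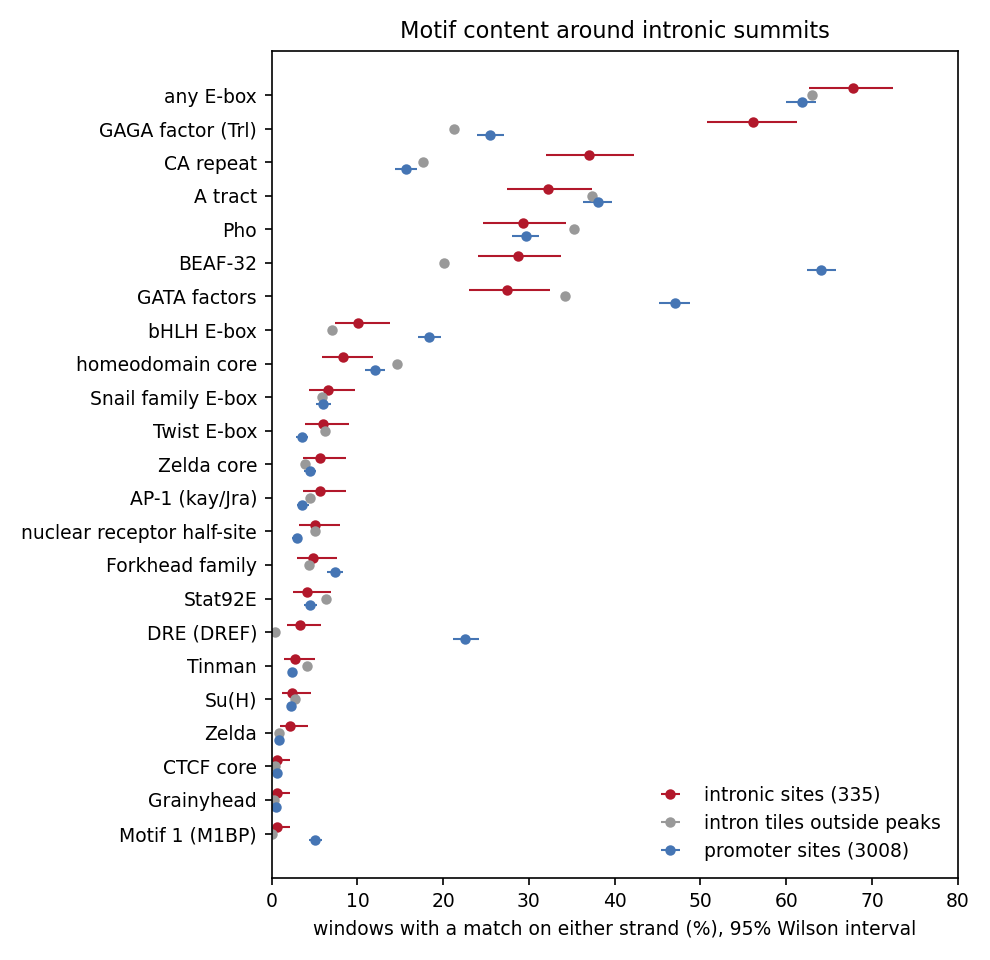
Share of windows of 100 bp on each side of the summit with at least 1 match on either strand for each of the 23 motifs searched, in %, with 95% Wilson intervals, for the 335 intronic sites, the 245119 intron tiles outside peaks and the 3008 promoter sites. The GAGA factor motif and the CA repeat lie to the right at the intronic sites, at 56.1% and 37.0%, while the BEAF-32 and DRE motifs lie farthest right at promoter sites, and the Snail family E-box is close to 6% in all 3.

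**Figure D5:**
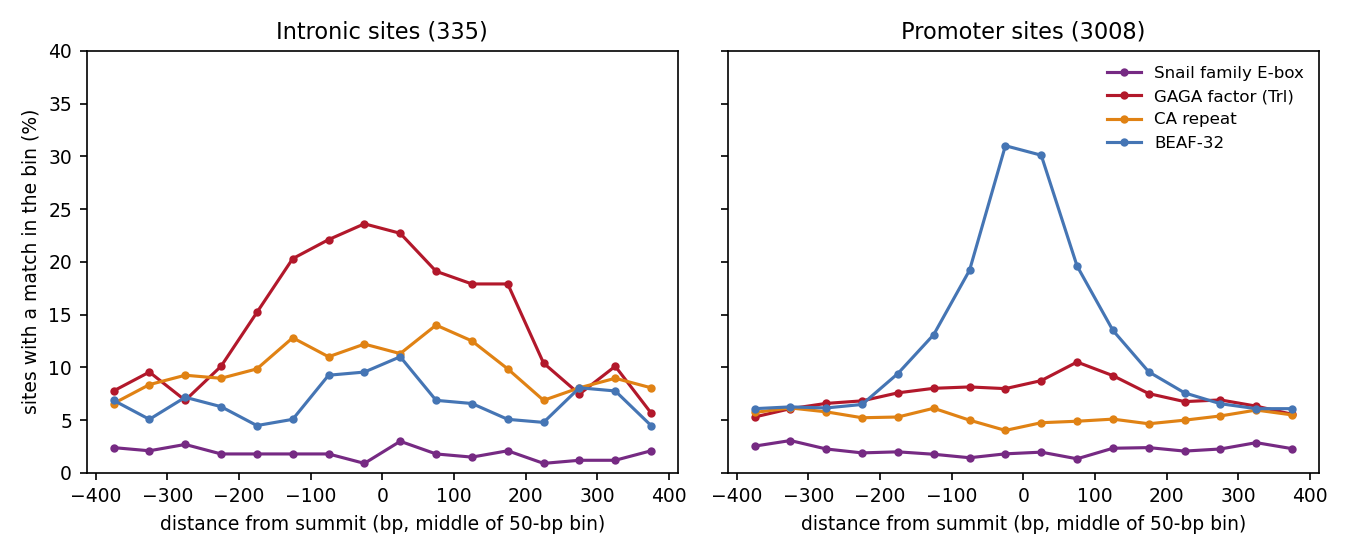
Share of sites with a match in each bin of 50 bp, in %, by distance from the summit in bp, for intronic sites (left) and promoter sites (right), each line being 1 motif. The GAGA factor motif is highest around the summits of intronic sites, at 23.6%, and the BEAF-32 motif around those of promoter sites, while the line of the Snail family E-box stays between 0.896% and 2.99% at intronic sites.

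The matches were concentrated around the summit. In bins of 50 bp, 23.6% of intronic sites had GAGAG just before the summit and 22.7% just after it, against 7.76% and 5.67% in the outermost bins at 350 to 400 bp. Farther out the shares were intermediate, with 15.2% at 150 to 200 bp before the summit and 17.9% after it. CAGGTG had no such shape, with 0.896% and 2.99% in the bins at the summit and 2.39% and 2.09% in the outermost ones.

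Words of 6 bases, compared without reference to any known motif, gave the same picture. Among the 552 words present in at least 10% of sites, AGAGCG had the highest ratio of its share in sites to its share in tiles, with 33.7% against 6.09%. It was followed by GAGAGC (35.8% against 6.97%), AGAGAG (38.8% against 7.96%) and GAGAGA (36.1% against 7.54%). The next words, with their ratios, were CGAGAG (4.47), GAGCGC (4.45), GAGCGA (4.22), CTCTCC (4.16), CGCGCA (4.15) and GCGAGA (4.15). At the other end were words of A and T, with AATTAT in 10.1% of sites against 26.1% of tiles. The GC content of the windows had a median of 48.3%, against 40.3% in tiles, 40.8% in neighbouring windows, 40.8% at promoter sites and 45.3% at intergenic sites.

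CA repeats were also more common at the sites than in tiles. CACACA was found in 124 sites (37.0%, 32.0 to 42.3), against 17.7% of tiles, 20.1% of tiles at the base composition of the sites, 15.7% of promoter sites and 21.2% of intergenic sites. Both GAGAG and CACACA were in 85 sites (25.4%), a share that was not counted in tiles. The CACACA share was 32.4% in the 111 strongest sites and 39.3% in the 112 weakest, with overlapping intervals. Sequence masked as repeat or low complexity in the reference was no more frequent at the sites, where 13 windows (3.88%) were masked over more than 50% of their bases, against 10.6% of tiles.

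The promoter-type motifs were less common at the intronic sites than at promoter sites. CGATA, the BEAF-32 motif, was in 96 (28.7%, 24.1 to 33.7), against 64.1% (62.4 to 65.8) of promoter sites, 20.1% of tiles and 18.2% of tiles at the base composition of the sites. Among the sites ranked 1 to 10 by signal, CGATA was missing only from those of org-1, Dscam1 and the Ptp61F and ru pair. It was in 31.5% of the 111 strongest sites and 26.8% of the 112 weakest, with overlapping intervals. TATCGATA was in 11 (3.28%, 1.84 to 5.78), against 22.6% (21.2 to 24.2) of promoter sites, 12.8% of intergenic sites and 0.444% of tiles. GGTCACACT, known as Motif 1, was in 2 intronic sites (0.597%) and 5.02% of promoter sites.

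The few intronic sites with TATCGATA were strong. Their median signal was 157 against 90.6 for the other sites, and 8 of the 11 (72.7%) were found in both replicates against 13.9% of the others. The strongest were those of Atg1 with CG42709 (251), Tudor-SN (204), woc, a zinc-finger gene (178, with 85.2 and 97.4), and Stt3A, a subunit of the oligosaccharyl transferase (165, with 103 and 74.1). The names of the rest were given after their values were seen: CG7102 (164), for (157), Ncoa6 (155), kirre (98.8), sbb (89.9), Imp (85.4) and lncRNA:CR32773 (54.8). Those up to kirre were found in both replicates, sbb and Imp in replicate 2 alone, and the last in neither. The kirre site also holds CAGGTG.

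Most other motifs lay near or below the tile shares. GATAA was in 27.5% (23.0 to 32.5) of intronic sites, 34.2% of tiles and 47% of promoter sites. The homeodomain core TAATTA was in 8.36% (5.85 to 11.8) of intronic sites and 14.6% of tiles. At the base composition of the sites these tile shares would be 27% and 9.52%, both inside the intervals of the sites. The AP-1 motif TGANTCA was in 19 sites (5.67%), 4.43% of tiles and 3.8% of tiles at that base composition. Of these 19 sites, 7 were found in both replicates. The nuclear receptor half-site AGGTCA was in 5.07% of sites and 5.1% of tiles. GCCAT, the motif of Pho, was below both tile shares, in 29.3% (24.6 to 34.3) of sites, 35.3% of tiles and 41.6% of tiles at that base composition. The A tract AAAAAA was in 32.2% (27.5 to 37.4) of sites and 37.4% of tiles, but above the 24.7% of tiles at that base composition. Of the 335 sites, 63 (18.8%) held neither the GAGA factor, BEAF-32 and Snail-family motifs nor the CA repeat, a share that was not counted in tiles. The sites of org-1, Dscam1 and the Ptp61F and ru pair were among the 63. A match is a description of the letters in these windows, and the absence of 1 says only that they are not there.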

How the data were processed

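Peak lists in narrowPeak layout on dm6 were used as deposited. Column 7 holds the authors' signal per peak and column 5 the authors' score, and the ranked lists also give the authors' −log10 IDR. Lists were called on each replicate, on the pooled replicates and on the replicate pair, per the file headers and labels. The sources used here name neither aligner nor peak caller. Scores were read but not analysed.

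Start sites, exons and introns came from Ensembl release 115 without transposable elements, and sequence from NCBI RefSeq Release 6. Members, gene lists and motifs were chosen with earlier results of these data known. All 280 list entries matched a gene, 6 through older symbols. Named were the 15 strongest sites, the strongest found in both replicates, the hosts with most sites, hosts of the Snail list and up to 4 of each other list. The tile share at the base composition of the sites weights tiles by GC classes of 5 percentage points. Intervals are 95% Wilson intervals. Computation used Python 3.11.15, numpy 2.4.6, pandas 2.3.3 and scipy 1.17.1, and classification and motif counting were tested on simulated data. No test over samples was possible with 1 group, and depth is unknown. Alternatives were other start-site distances, annotations, lists, overlap rules and windows.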

Additional observations from a re-analysis of the deposited data

How the results depend on the processing

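Of 94 alternative values, 74 stayed within the interval of the reported share or median, or within 1.5 times the reported count, and 20 moved. With start sites over 2000 bp away there were 165 sites in place of 335, of which 10.9% were found in both replicates and 61.2% lay in first introns. The better 50% of the list by IDR left 65 sites. Counting every peak gave a median signal of 87.8. In each replicate's own list the number of sites ran from 111 to 148, the share in first introns from 63.1% to 65.5% and that with GAGAG from 51.4% to 61.5%. Windows of 50 bp on each side of the summit gave 3.88% with CAGGTG, 17.3% with CGATA, 37.6% with GAGAG and 20.9% with CACACA, beside 2.96%, 10.6%, 11.3% and 9.37% of tiles of that size. Windows of 200 bp gave 12.5%, 40.6%, 72.5% and 55.8%, beside 11.5%, 35.7%, 37.9% and 31.6% of tiles. Among the 107 sites with a signal of 100 or more, a limit chosen after seeing the data, 42.1% were found in both replicates, 62.6% held GAGAG and 31.8% CACACA. Transposable elements counted as genes, also added after seeing the data, gave 326 sites, and overlaps resolved over the whole list first gave 330. No paired analysis was possible because the series has 1 group. Depth is unknown, so a site missing from a list may be below its threshold and not absent.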

Other observations

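Some of the strongest sites lay near genes of small RNAs, which are short genes often found inside introns of others. The nearest start to the strongest site in EcR was that of tRNA:Asn-GTT-1-1, 1200 bp away, and for that in Roc2 it was tRNA:Met-CAT-1-2, 1463 bp away. The nearest start to the strongest site in mam was that of mir-4978, at 1017 bp, and for Tudor-SN it was snoRNA:Psi18S-996, at 953 bp. Promoter sites lay 1118, 1458, 1024 and 1580 bp from these sites in EcR, Roc2, mam and Tudor-SN. Over all 335 sites the nearest start was that of a tRNA gene for 6 and of a snoRNA gene for 4. The share of intron sequence near microRNA or snoRNA genes was not computed. Over all 335 sites, 3 (0.896%, 95% Wilson interval 0.305 to 2.60) had a tRNA gene within 2000 bp, and 2 of them were found in both replicates. Of the eligible intron sequence 0.287% lies as close to a tRNA gene, and of 3008 promoter sites 86 (2.86%) do. These genes were named after their values were seen.

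Most intronic sites had no other member within 5000 bp. Another member lay within 1000 bp for 8 sites (2.39%), within 2000 bp for 33 (9.85%) and within 5000 bp for 62 (18.5%). Overlapping peaks had been counted once, which limits the first of these counts. The shares expected from the density of sites were not computed, so no tendency to cluster or to lie apart can be read from them. The weakest member, at 5.05 in Khc-73, and the weakest in sbb, at 22.9, had no candidate region in replicate 1, with 28.2 and 25.3 in replicate 2.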
